A study of Mus musculus with 36 samples.

Results

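The genes described here are 59 members of the cytochrome P450 superfamily, out of 22558 genes listed in each of 2 expression tables. Of 92 gene symbols made of Cyp, a family number, a subfamily letter or letters and a gene number, 6 were left out by the selection rule (Cyp4a10, Cyp4a14, Cyp7a1, Cyp7b1, Cyp8b1 and Cyp27a1) and 27 had a mean under 0.5 FPKM in both tables. FPKM, fragments scaled to the length of the transcript and to the mapped fragments of the library, is a level per length. Cyp2b10 (mean 0.510 FPKM) and Cyp4f39 (0.585 FPKM) lay just inside that limit, and Cyp2j13 (0.448 FPKM) and Cyp11a1 (0.437 FPKM) just outside it. The selection used the level over all treatments and no test of a response. A gene low in the control libraries could still pass through the treated ones, as Cyp17a1 did.

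The 36 libraries came from C57BL/6 mice given DMOG, roxadustat or phosphate-buffered saline (PBS), with 6 libraries per treatment for each of 2 tissue labels, retina and liver. DMOG and roxadustat inhibit the prolyl hydroxylases that mark the HIF alpha subunits for breakdown, and the series title places the work in the prevention of retinopathy of prematurity. The labels give no dose, time or age and do not say whether each library is a separate animal. By Xist and Y-linked genes, every treatment of both sets held female and male libraries, so a group drew on more than 1 animal. A p-value here reflects only how much these libraries vary, which may in part be technical. The tissue labels went against the RNA. In the libraries labelled retina, 8 liver marker genes summed to a mean of 29619 FPKM with DMOG, 27621 FPKM with roxadustat and 29180 FPKM with PBS, against 1.84, 1.71 and 1.74 FPKM for 8 retina marker genes. In the libraries labelled liver, the retina markers summed to 9656, 9651 and 10088 FPKM in the same order, and the liver markers to 102, 160 and 145 FPKM. The text therefore names each set by its label with its RNA beside it.

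Cytochrome P450 enzymes are heme proteins that use oxygen to oxidise their substrates. Most sit in the endoplasmic reticulum and take electrons from NADPH through the reductase Por, helped by cytochrome b5. In liver, families 1 to 3 oxidise drugs, toxins and steroids and family 4 oxidises fatty acids, while other families act on single classes of steroids, retinoids or sterols. Their genes are controlled in large part by nuclear receptors and by sex-dependent growth hormone signals.

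Of the 59 genes, 55 reached a mean of 0.5 FPKM in the libraries labelled retina (liver RNA) and 16 in those labelled liver (retina RNA), with 12 in both sets. The other 43 of the 55 passed with liver RNA alone, and Cyp1b1, Cyp26a1, Cyp46a1 and Cyp4x1 passed with retina RNA alone. Family 2 held 33 members, family 4 held 12 and family 3 held 6. Families 1 and 26 held 2 each and families 17, 20, 39 and 46 held 1 each. In retina RNA no member of family 3 passed, and 18 of the 59 members were listed at 0 in all 18 libraries there. Many of these genes have close copies, which the authors' counting could have split. By sequence, 25 of 57 members matched to GENCODE M21 shared over 10% of their longest transcript's 50-base words with another Cyp gene, led by Cyp2c40 (72.1%), while Cyp17a1, Cyp2g1 and Cyp2u1 shared none.

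Levels in liver RNA spanned more than 3 orders of magnitude. Cyp2e1, which oxidises ethanol, acetone and paracetamol, was the most abundant over all treatments with a mean of 1009 FPKM, ahead of Cyp2d26 (539 FPKM) and Cyp3a11 (468 FPKM), a major drug oxidising enzyme of mouse liver. Cyp2a12, a testosterone hydroxylase (165 FPKM), Cyp2c70, which makes muricholic bile acids in mice (143 FPKM), and Cyp2d10 (143 FPKM) followed. In the PBS libraries the range of Cyp2e1, 1028 to 1658 FPKM, lay above that of Cyp2d26, 522 to 721 FPKM, which overlapped that of Cyp3a11, 403 to 610 FPKM. The members summed to 3480 ± 785 FPKM with DMOG, 3489 ± 476 FPKM with roxadustat and 4355 ± 422 FPKM with PBS (mean ± SD, n = 6 each), which were 0.688%, 0.719% and 0.926% of all FPKM of a library. Single libraries ran between 2343 and 4631 FPKM with DMOG, between 2731 and 4109 FPKM with roxadustat and between 3860 and 5076 FPKM with PBS, so the sums overlapped between treatments. Abundant members weigh most on these sums. Cyp2e1 alone averaged 905 ± 371 FPKM with DMOG, 807 ± 205 FPKM with roxadustat and 1315 ± 266 FPKM with PBS. In bulk RNA, fewer cells of a type and less RNA per cell cannot be told apart.

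**Figure D1:**
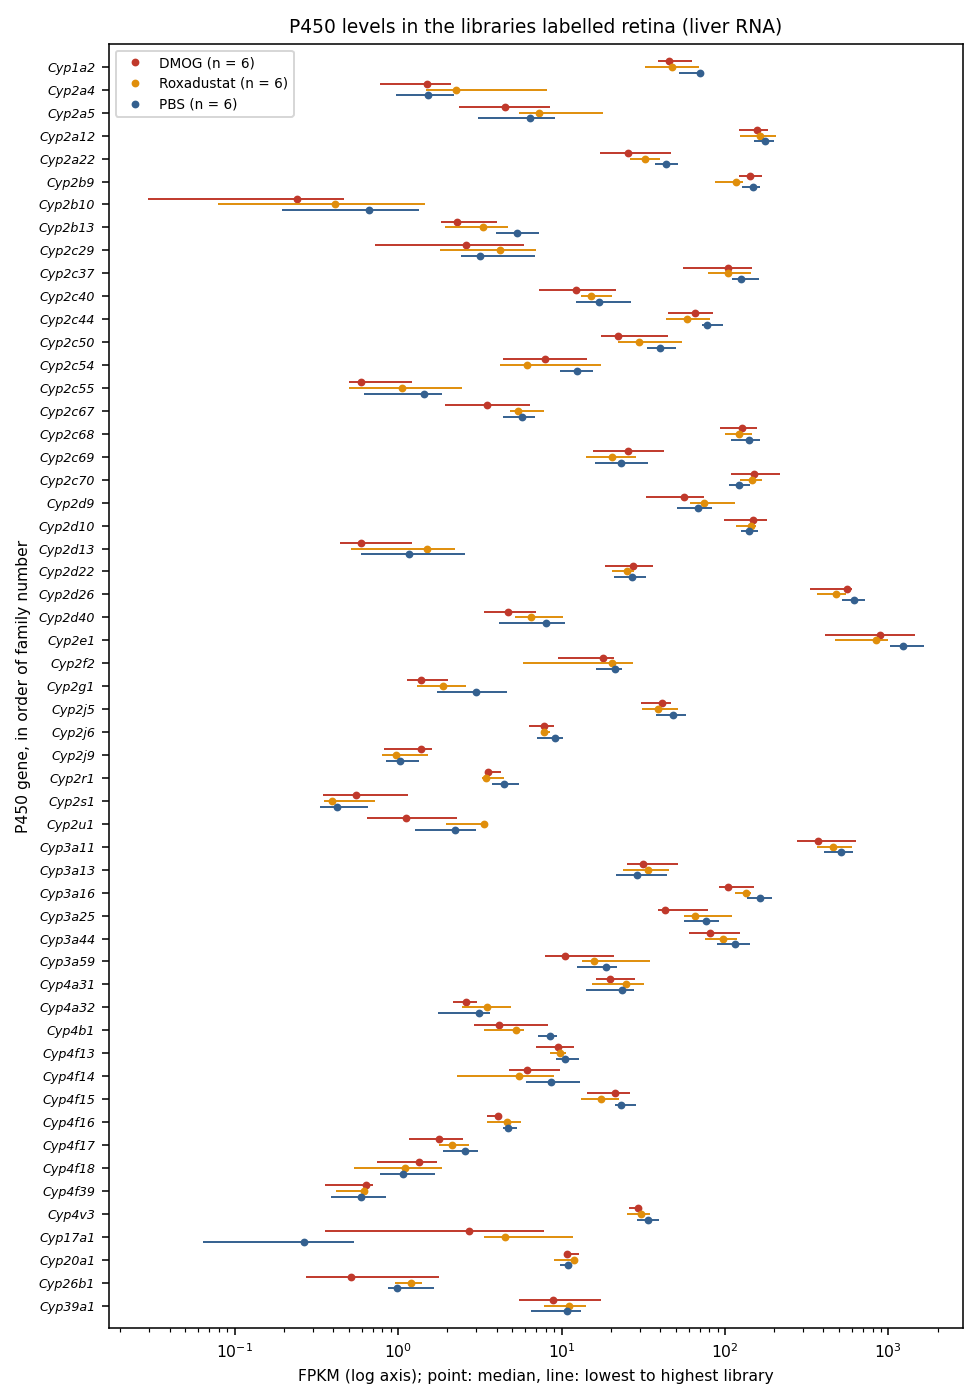
Level of each of the 55 members that passed the limit in the libraries labelled retina (liver RNA), in FPKM on a log axis. Points are medians of 6 libraries and lines run over the lowest and highest library of each treatment. Cyp17a1 is the member whose roxadustat and DMOG medians, 4.51 and 2.71 FPKM, stand far above its PBS median of 0.266 FPKM, while the DMOG medians of most other members lie at or below their PBS medians.

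With DMOG, 47 of the 55 members tested in liver RNA had a log2 fold change over PBS below 0, which was 85.5% against 47.8% of all 12657 genes tested. Their median log2 fold change was -0.33, and that of all genes was 0.01. Fewer passed the test. By limma with Benjamini-Hochberg adjustment over all genes at 0.05, 9 members were called (16.4%), 1 higher and 8 lower, where 20.0% of all genes were called, 8.26% higher and 11.7% lower. The share called was thus no higher than in the background, and the share called lower was 14.5% of the members. At an unadjusted p under 0.05 there were 27 members. One library weighs on these counts: without DMOG replicate 5, 24 members were called, 2 higher and 22 lower (43.6%), against 35.5% of all genes (17.3% higher and 18.1% lower), and without roxadustat replicate 5, 14 members were called, against 20.1% of all genes. With each library scaled to an equal total, 1 member was called higher and 29 lower, and 17.9% of the 3271 genes called over the table were higher, against 41.4% of 2526 with the deposited scale.

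DMOG replicate 5 lay close to the PBS libraries for most members. Of the 55 members, 48 were within the PBS range in this library, against 11 to 31 in the other DMOG libraries. Its median log2 difference from the PBS mean was 0.06, against -0.617 to -0.125 in the other 5. It stood above all other DMOG libraries for 27 members, below all of them for 5 and among them for 23. Counts without it are therefore given for all members, for families 2 and 3 and for the lists of partner genes where they change. The library was singled out by the members' own values. Leaving it out was bound to widen the DMOG change of the members where it stood nearest PBS. Calls gained without DMOG replicate 5 are therefore no separate support for a change.

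**Figure D2:**
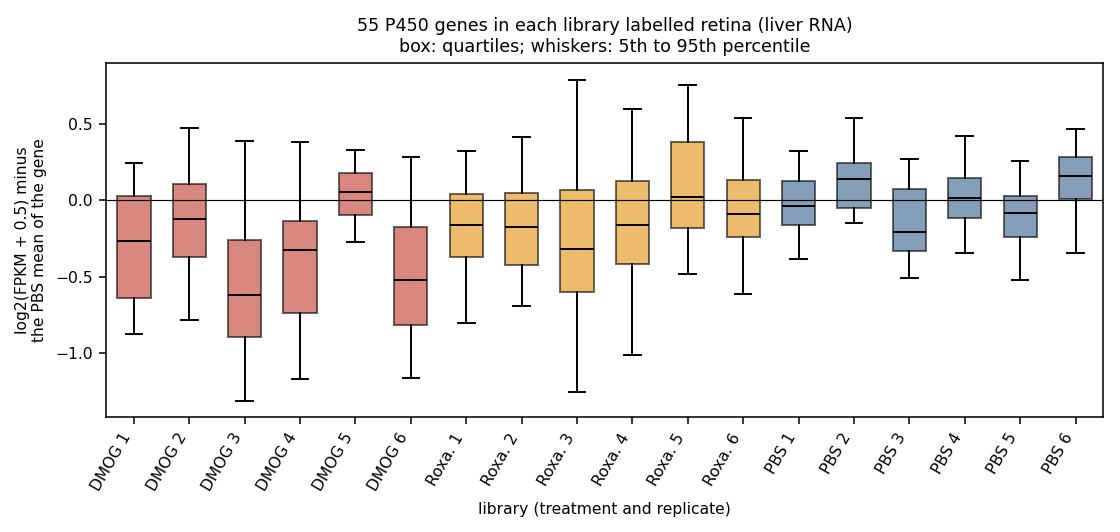
Log2(FPKM + 0.5) of the 55 members in each library labelled retina (liver RNA), minus the mean of the same gene over the 6 PBS libraries. Boxes are quartiles over genes, the inner line is the median, and whiskers run over the 5th to the 95th percentile. The medians of DMOG replicates 3 and 6, at -0.62 and -0.52, are the lowest, and DMOG replicate 5 has its median at 0.06.

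Roxadustat gave fewer calls. In the comparison with PBS in liver RNA, 36 of 55 members had a log2 fold change below 0 (65.5%, against 50.2% of all genes), with a median of -0.14. Called were 3 members (5.45%), 1 higher and 2 lower, where 4.19% of all genes were called (2.16% higher and 2.02% lower), and 19 had an unadjusted p under 0.05. The count was 5 without DMOG replicate 3 (4.44% of all genes called), roxadustat replicate 5 (4.01%) or DMOG replicate 5. In the last of these fits they were 1 higher and 4 lower, where 8.78% of all genes were called, 4.12% higher and 4.65% lower. The count was 1 (1.82%) without roxadustat replicate 1 or 3, where 2.72% and 2.87% of all genes were called, or without PBS replicate 2, 3, 4 or 6, where the shares of all genes were 2.86%, 2.79%, 2.84% and 2.76%, and Cyp17a1 was called in each of these. Between the drugs, 1 member, Cyp2u1, was called higher with roxadustat than with DMOG (1.82%, where 2.99% of all genes were called and 1.86% were called higher), and 14 had an unadjusted p under 0.05. Without DMOG replicate 5 there were 9, each higher with roxadustat, against 16.2% of all genes called and 9.06% called higher, and without DMOG replicate 2 there were 2, against 2.09% of all genes. The doses are not given, so a difference between the drugs and one between their doses cannot be told apart.

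Cyp17a1, the steroid hydroxylase and lyase on the path to androgens, was the member that rose with both drugs in liver RNA. Its levels in replicates 1 to 6 were 2.45, 7.85, 2.97, 3.31, 0.356 and 1.34 FPKM with DMOG, and 5.85, 3.34, 11.7, 4.44, 4.59 and 4.42 FPKM with roxadustat. With PBS they were 0.539, 0.275, 0.0638, 0.425, 0.256 and 0.238 FPKM. Every roxadustat library stood above every PBS library, and every DMOG library other than replicate 5 did so as well. The means were 3.05 ± 2.59 FPKM with DMOG, 5.73 ± 3.05 FPKM with roxadustat and 0.299 ± 0.164 FPKM with PBS (SD, n = 6 each). The PBS mean lay under the limit of 0.5 FPKM, so Cyp17a1 passed that limit only through its drug libraries. On the log2(FPKM + 0.5) scale, which understates changes of genes near the pseudocount of 0.5, the change over PBS was 1.85 ± 0.39 (SE) with DMOG (limma, adjusted p = 0.00344) and 2.88 ± 0.39 with roxadustat (adjusted p = 0.000555). The difference between roxadustat and DMOG, 1.03 ± 0.39 with a 95% interval of 0.20 to 1.86, was not called (adjusted p = 0.160). Of the 18 fits without 1 library, only that without DMOG replicate 2 called it (adjusted p = 0.0473). That library was the highest with DMOG, so leaving it out was bound to widen the difference. Without DMOG replicate 5 the difference was 0.68 ± 0.31 (adjusted p = 0.155), and the adjusted p reached 0.299 among the 18 fits. Without DMOG replicate 5 the change with DMOG was 2.19 ± 0.31.

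The level of Cyp17a1 stayed low beside the abundant members. Its mean over the 18 libraries of liver RNA was 3.02 FPKM. Among 10 marker genes of steroid-producing cells (adrenal cortex and Leydig cells), Hsd3b1 alone passed the limit of 0.5 FPKM. Nr5a1, a transcription factor that defines those cells, ran between 0 and 0.0486 FPKM over the 18 libraries, and Star, which brings cholesterol into mitochondria, between 0.239 and 0.492 FPKM. Hsd3b1 averaged 11.4 ± 8.56 FPKM with DMOG, 9.19 ± 2.52 FPKM with roxadustat and 18.2 ± 2.92 FPKM with PBS, and was called lower with DMOG (log2 fold change -0.87 ± 0.29, adjusted p = 0.0386). Thus it moved in the other direction to Cyp17a1. In retina RNA, Cyp17a1 was listed at 0 in most libraries and reached at most 0.0210 FPKM with DMOG, 0.0177 FPKM with roxadustat and 0.0218 FPKM with PBS, under the limit for a test.

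**Figure D3:**
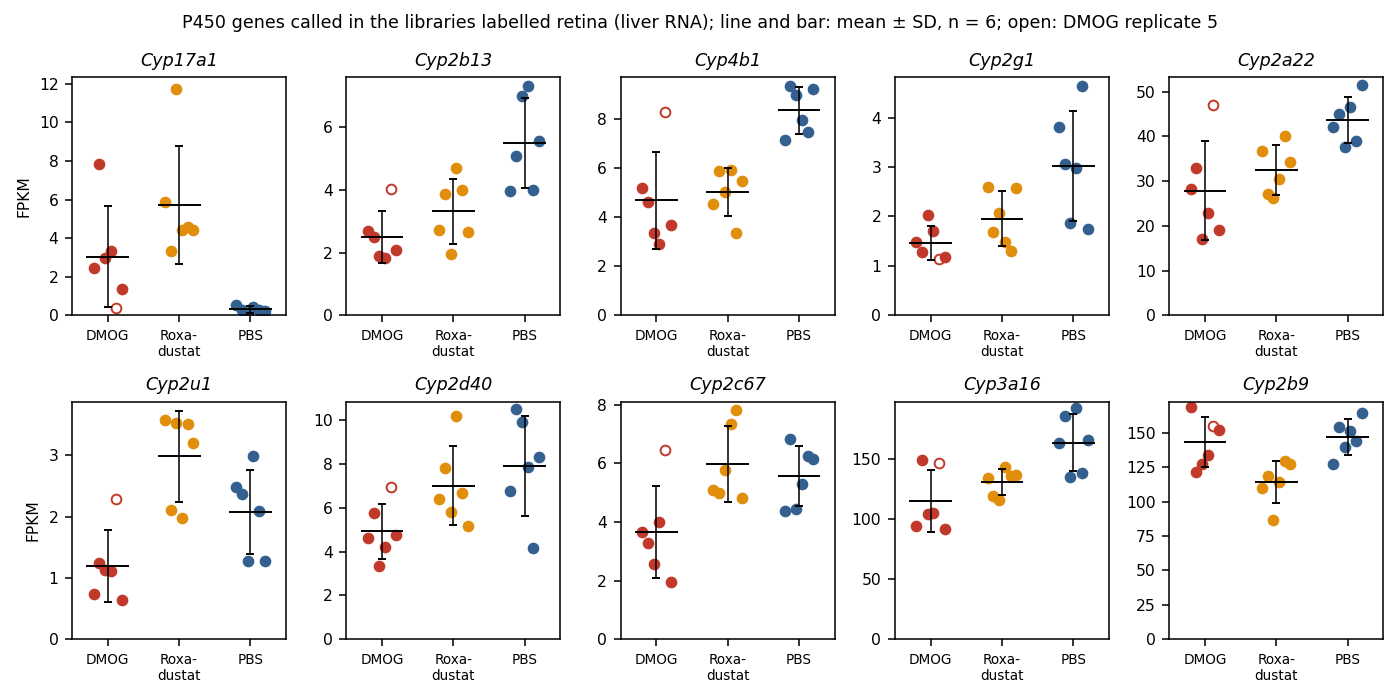
FPKM per library for the 10 members called in at least 1 comparison in the libraries labelled retina (liver RNA). Points are libraries, lines and bars are the mean ± SD of 6 libraries, and the open point is DMOG replicate 5. In Cyp17a1 the 6 roxadustat points sit between 3.34 and 11.7 FPKM, above all 6 PBS points, and in Cyp4b1 the open point at 8.32 FPKM is the one DMOG library within the PBS points.

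In family 2, which holds most drug and steroid oxidising enzymes of liver, 29 of 33 members had a log2 fold change below 0 with DMOG (median -0.39). Of the 33, 6 were called lower and none was called higher, where 11.7% and 8.26% of all genes were. The called members were Cyp2b13, Cyp2g1, Cyp2a22, Cyp2u1, Cyp2d40 and Cyp2c67. By subfamily, 4 of 4 Cyp2a, 3 of 3 Cyp2b, 9 of 11 Cyp2c and 6 of 6 Cyp2d genes lay below 0, and each of these 4 groups had 1 called gene. Without DMOG replicate 5, 13 members of the family were called lower and 1, Cyp2c70, was called higher. In that fit 18.1% of all genes were called lower and 17.3% higher.

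Cyp2b13 and Cyp2b9 encode closely related enzymes that are known from the liver of adult female mice. The windows just before their starts are shown because the genes are near copies there, while their responses are set side by side. They are the 250 bases upstream of the start from RefSeq (GRCm38.p6, plus strand), at chr7:26061245-26061494 for Cyp2b13 and chr7:26173159-26173408 for Cyp2b9, written 5′ to 3′ with the 2 bases that differ in capitals.
Cyp2b13: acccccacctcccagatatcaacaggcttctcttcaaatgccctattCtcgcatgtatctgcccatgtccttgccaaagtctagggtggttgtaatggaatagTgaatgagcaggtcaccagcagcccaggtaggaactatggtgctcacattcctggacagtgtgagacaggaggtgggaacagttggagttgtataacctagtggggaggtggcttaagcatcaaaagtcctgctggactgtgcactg
Cyp2b9: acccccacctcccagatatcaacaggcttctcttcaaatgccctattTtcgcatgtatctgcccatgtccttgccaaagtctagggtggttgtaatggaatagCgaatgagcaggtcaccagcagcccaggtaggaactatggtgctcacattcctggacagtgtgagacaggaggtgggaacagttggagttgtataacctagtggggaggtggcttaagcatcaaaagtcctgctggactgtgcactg

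Cyp2b13 had 1.82, 2.28 and 4.04 FPKM (lowest, median and highest library) with DMOG, 1.95, 3.30 and 4.69 FPKM with roxadustat and 3.97, 5.33 and 7.31 FPKM with PBS. All DMOG libraries but replicate 5 lay below the PBS range, and the roxadustat range overlapped both. Its log2 fold change was -1.0 ± 0.20 with DMOG (adjusted p = 0.00239) and -0.66 ± 0.20 with roxadustat (adjusted p = 0.0664). The roxadustat value was called without DMOG replicate 5 (adjusted p = 0.0265). Cyp2b9 had 122, 143 and 169 FPKM with DMOG, 86.4, 116 and 129 FPKM with roxadustat and 127, 148 and 165 FPKM with PBS. Its DMOG and PBS libraries covered a similar range, and its roxadustat libraries lay lower with a small overlap. The log2 fold change of Cyp2b9 was -0.04 ± 0.10 with DMOG (95% interval -0.26 to 0.17, adjusted p = 0.792) and -0.37 ± 0.10 with roxadustat (adjusted p = 0.0474). The roxadustat call was lost without 11 of the 18 libraries in turn, with an adjusted p of up to 0.112. Whether the genes differ in their response was not tested, and they share 10.8% of their 50-base words, so reads could pass between them. Sex was not balanced: by Xist and Y-linked genes, 4 DMOG, 1 roxadustat and 3 PBS libraries of this set were female, of 6 each. In a fit with a term for sex, female minus male was -0.29 ± 0.17 for Cyp2b13 (adjusted p = 0.614) and -0.16 ± 0.09 for Cyp2b9 (adjusted p = 0.612), and no member was called for sex.

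Cyp2b10, the member long used as a readout of phenobarbital-type induction through the receptor Nr1i3, had a median of 0.239 FPKM with DMOG, 0.409 FPKM with roxadustat and 0.667 FPKM with PBS. It lay below the PBS mean in 6 of 6 DMOG libraries but was not called (log2 fold change -0.67 ± 0.27, adjusted p = 0.0925).

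Cyp2g1, known from olfactory mucosa, had 1.13, 1.38 and 2.02 FPKM with DMOG and 1.74, 3.02 and 4.64 FPKM with PBS, overlapping at the edge. It fell by 0.79 ± 0.19 on the log2 scale with DMOG (adjusted p = 0.00821), and its value with roxadustat was -0.49 ± 0.19 (adjusted p = 0.171). Cyp2a22 had 17.2, 25.5 and 47.0 FPKM with DMOG and 37.5, 43.6 and 51.4 FPKM with PBS. Of its DMOG libraries, replicate 5 was the one within the PBS range. The log2 fold change of Cyp2a22 was -0.71 ± 0.19 (adjusted p = 0.0123), and it shares 20.5% of its 50-base words with Cyp2a12, which was not called (-0.20 ± 0.12). Cyp2d40 (-0.61 ± 0.20, adjusted p = 0.0365) and Cyp2c67 (-0.61 ± 0.20, adjusted p = 0.0357) were called lower with DMOG as well, with ranges of 3.34 to 6.93 FPKM and 1.95 to 6.46 FPKM, against 4.16 to 10.5 FPKM and 4.36 to 6.83 FPKM with PBS. Both overlapped, and each call was lost without 8 of the 18 libraries in turn (adjusted p up to 0.0905 for Cyp2d40 and 0.0884 for Cyp2c67).

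Cyp2u1, a hydroxylase of long-chain fatty acids such as arachidonic acid, was the one member called between the drugs with all libraries. It had 0.645, 1.12 and 2.28 FPKM with DMOG, 1.97, 3.35 and 3.57 FPKM with roxadustat and 1.27, 2.22 and 2.98 FPKM with PBS. Replicate 5 was again the highest DMOG library, and the other 5 reached at most 1.24 FPKM. Roxadustat exceeded DMOG by 1.07 ± 0.21 on the log2 scale (adjusted p = 0.0141), with all 6 roxadustat libraries above the DMOG mean. That call was lost with a term for sex (1.05, adjusted p = 0.0562). Against PBS, Cyp2u1 fell by 0.63 ± 0.21 with DMOG (adjusted p = 0.0456) and was not called with roxadustat (0.45 ± 0.21, adjusted p = 0.263). The DMOG call was lost without 12 of the 18 libraries in turn, with an adjusted p of up to 0.110, but held without replicate 5 (-0.78 ± 0.19).

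Cyp2e1 and Cyp2d26, the most abundant members, had lower means with both drugs than with PBS without being called. Cyp2e1 had 410, 888 and 1461 FPKM with DMOG, 471, 834 and 996 FPKM with roxadustat and 1028, 1229 and 1658 FPKM with PBS. All roxadustat libraries lay below all PBS libraries. Of the 55 members, 2 stood this way with roxadustat and 1, Cyp17a1, stood above, where 2.73% and 2.76% of all genes did. The log2 fold change of Cyp2e1 was -0.73 ± 0.25 with roxadustat (adjusted p = 0.114) and -0.63 ± 0.25 with DMOG (adjusted p = 0.0858), and the DMOG value was called without DMOG replicate 5 (-0.79 ± 0.24, adjusted p = 0.0158). Cyp2d26 had -0.40 ± 0.13 with roxadustat (adjusted p = 0.0932) and -0.27 ± 0.13 with DMOG (adjusted p = 0.159). Cyp2d10 averaged 145 ± 26.8 FPKM with DMOG, 139 ± 14.5 FPKM with roxadustat and 144 ± 13.1 FPKM with PBS, and its 95% interval with DMOG ran over -0.25 to 0.24 on the log2 scale. Cyp2c70 ran the other way, at 159 ± 36.5 FPKM with DMOG, 148 ± 16.8 FPKM with roxadustat and 122 ± 13.1 FPKM with PBS, a log2 fold change of 0.36 ± 0.13 with DMOG (adjusted p = 0.0584) that was called without DMOG replicate 5 (0.46 ± 0.11, adjusted p = 0.00418).

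The window before the start of Cyp2e1 is shown because it holds the letters ACGTG, a form of the core of the sites that HIF is known to bind, on the minus strand. It lies at chr7:140763569-140763818 of GRCm38.p6 on the plus strand (RefSeq), and the capitals mark CACGT, the reverse complement of ACGTG, which begins 36 bases before the start, and TATAAA next to it.
Cyp2e1: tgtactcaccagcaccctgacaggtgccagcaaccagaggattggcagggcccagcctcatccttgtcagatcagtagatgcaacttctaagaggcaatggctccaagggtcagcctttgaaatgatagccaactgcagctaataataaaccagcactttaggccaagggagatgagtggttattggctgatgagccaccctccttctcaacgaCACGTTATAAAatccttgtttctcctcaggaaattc

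Over windows of 250 bases before to 50 bases after the start, 48 of the 59 members matched a RefSeq entry, with 52 windows. Cyp17a1 had no entry, so the shares below do not cover it. Searched on both strands, ACGTG was in 9.62% of these windows, against 19.6% of all 32851 promoter windows. GCGTG, the core letters bound by the Ahr and Arnt pair and also a form of the HIF core, was in 21.2% against 32.4%. Windows with either form were not counted together. TTGCNNAA, a pattern of C/EBP factors, was in 32.7% against 10.8%, and TATAAA in 44.2% against 13.6%. Some windows of members are near copies, as those of Cyp2b13 and Cyp2b9 are, so the same match can count more than once. The differences from all windows were not tested. These matches describe letters and not binding.

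Family 3 holds the Cyp3a enzymes, the chief oxidisers of drugs and of testosterone. With DMOG, 5 of 6 members had a log2 fold change below 0 (median -0.46). Cyp3a16, known from fetal and young mouse liver, was called lower, where 11.7% of all genes were. Cyp3a16 had 91.7, 105 and 149 FPKM with DMOG, 116, 135 and 143 FPKM with roxadustat and 135, 165 and 193 FPKM with PBS. The DMOG and PBS ranges overlapped, with every DMOG library below the PBS mean. It fell by 0.52 ± 0.13 on the log2 scale with DMOG (adjusted p = 0.00821), and its roxadustat value was -0.31 ± 0.13 (adjusted p = 0.178). Cyp3a11 averaged 403 ± 124 FPKM with DMOG, 484 ± 94.0 FPKM with roxadustat and 517 ± 70.8 FPKM with PBS, and was not called with DMOG (-0.40 ± 0.17, adjusted p = 0.102). Without DMOG replicate 5, 5 of the 6 were called lower with DMOG, namely Cyp3a11, Cyp3a16, Cyp3a25, Cyp3a44 and Cyp3a59, where 18.1% of all genes were. Cyp3a13 was not called, with 0.18 ± 0.19 in all libraries. With roxadustat 3 members lay below 0 and 3 above, the median was -0.04 and none was called (1 at an unadjusted p under 0.05). In the comparison of roxadustat with DMOG, 3 of the 6 were called higher without DMOG replicate 5 (Cyp3a11, Cyp3a25 and Cyp3a59), where 9.06% of all genes were. None of the 6 was called in all libraries.

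In family 4, whose enzymes oxidise fatty acids and leukotrienes, 10 of 11 members lay below 0 with DMOG (median -0.21) and 8 of 11 with roxadustat (median -0.14). Cyp4b1, which activates furan toxins, was called lower with both drugs. It had 2.92, 4.16 and 8.32 FPKM with DMOG, 3.35, 5.27 and 5.92 FPKM with roxadustat and 7.17, 8.48 and 9.38 FPKM with PBS. Every roxadustat library and every DMOG library but replicate 5 lay below the PBS range. The log2 fold change was -0.84 ± 0.18 with DMOG (adjusted p = 0.004) and -0.69 ± 0.18 with roxadustat (adjusted p = 0.0361). The roxadustat call was lost without 7 of the 18 libraries in turn, with an adjusted p of up to 0.0825, and the DMOG call was kept without each. Of the 7 Cyp4f genes, 6 lay below 0 with either drug, and none was called (2 with DMOG and 2 with roxadustat at an unadjusted p under 0.05). Cyp4f14 had -0.87 ± 0.27 with roxadustat (adjusted p = 0.0779), which was called without DMOG replicate 5 (adjusted p = 0.0481). Cyp4f17 had -0.40 ± 0.14 with DMOG (adjusted p = 0.0525), which was called lower without that library (-0.48 ± 0.14, adjusted p = 0.0116). Cyp4f16 had all DMOG libraries below all PBS libraries, which held for no other member and for 1.45% of all genes. No member had all DMOG libraries above all PBS libraries, which held for 1.33% of all genes. Cyp4f16 was not called (-0.23 ± 0.09, adjusted p = 0.0893). Cyp4v3, whose human counterpart is altered in Bietti crystalline dystrophy of the retina, led the family in level at 29.1 ± 2.05 FPKM with DMOG, 30.5 ± 3.15 FPKM with roxadustat and 33.8 ± 4.00 FPKM with PBS, and was not called.

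The remaining families had 1 member each in liver RNA besides Cyp17a1, and none was called. Cyp1a2, which oxidises caffeine and aromatic amines and is a target of the receptor Ahr, averaged 49.2 ± 10.2 FPKM with DMOG, 49.2 ± 14.3 FPKM with roxadustat and 66.8 ± 9.15 FPKM with PBS. Its log2 fold change was -0.45 ± 0.17 with DMOG (adjusted p = 0.0703) and -0.48 ± 0.17 with roxadustat (adjusted p = 0.124), and the DMOG value was called without DMOG replicate 5 (adjusted p = 0.0248). Cyp26b1, which breaks down retinoic acid, had medians of 0.512 FPKM with DMOG, 1.2 FPKM with roxadustat and 0.984 FPKM with PBS, and was called lower with DMOG without replicate 5 (-0.67 ± 0.14, adjusted p = 0.00128). Cyp39a1, an oxysterol hydroxylase, averaged 9.92 ± 4.45 FPKM with DMOG, 11.4 ± 2.40 FPKM with roxadustat and 10.03 ± 2.48 FPKM with PBS. Cyp20a1, an enzyme without a settled substrate, averaged 11.3 ± 0.933, 11.4 ± 1.31 and 10.7 ± 0.666 FPKM in the same order, and its change was bounded by 95% intervals of -0.08 to 0.25 with each drug on the log2 scale.

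**Figure D4:**
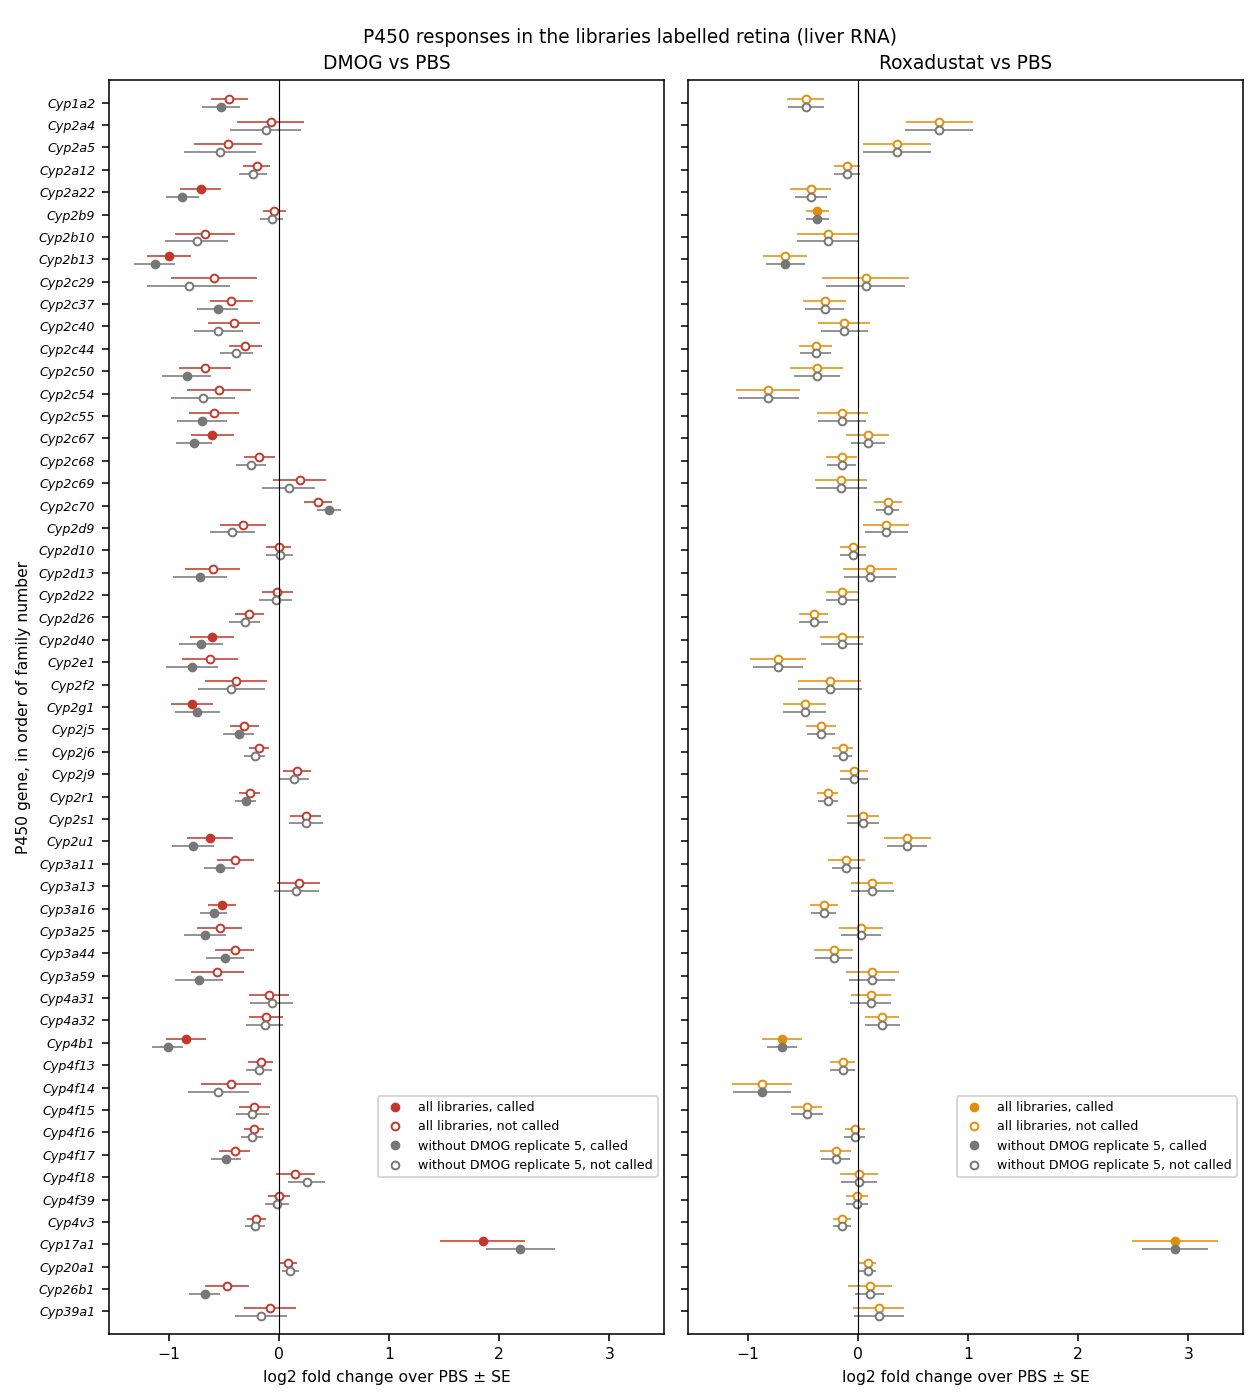
Log2 fold change over PBS ± SE of the 55 members in the libraries labelled retina (liver RNA), with DMOG on the left and roxadustat on the right. Coloured points use all libraries, grey points leave out DMOG replicate 5, and filled points are called by limma at an adjusted p under 0.05. Cyp17a1 stands apart at 1.85 with DMOG and 2.88 with roxadustat, and most other members lie to the left of 0 with DMOG.

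Genes that serve or control P450 enzymes were read in the same libraries. Of all genes tested, 8.26% were called higher and 11.7% lower with DMOG, and 17.3% and 18.1% without DMOG replicate 5. With roxadustat 4.19% of all genes were called, and between the drugs 2.99%, against 8.78% and 16.2% without that library. These shares are the background for each list read in liver RNA. Of 9 electron transfer genes, 2 were lower with DMOG, and 3 without DMOG replicate 5. Por, the reductase that feeds P450 enzymes of the endoplasmic reticulum, averaged 79.1 ± 24.1 FPKM with DMOG, 105 ± 21.7 FPKM with roxadustat and 112 ± 17.1 FPKM with PBS (DMOG log2 fold change -0.54 ± 0.18, adjusted p = 0.0428). Cyb5b, the cytochrome b5 of the outer mitochondrial membrane, fell with DMOG (-0.54 ± 0.13, adjusted p = 0.00825) and with roxadustat (-0.51 ± 0.13, adjusted p = 0.0351). Of 12 genes of heme synthesis and breakdown, 2 were higher and 1 lower with DMOG, and 3 and 1 without DMOG replicate 5. The heme oxygenases Hmox2 (0.37 ± 0.09, adjusted p = 0.00632) and Hmox1 (0.51 ± 0.16, adjusted p = 0.0305) rose, and Uros, an enzyme of heme synthesis, fell (-0.53 ± 0.17, adjusted p = 0.039). With roxadustat, Hmox2 was the 1 of the 12 called with all libraries (0.47 ± 0.09, adjusted p = 0.00374), and without DMOG replicate 5 Hmox1 was called higher too (adjusted p = 0.0485). Against DMOG, roxadustat gave no call in either list (2 electron transfer genes and 1 heme gene at an unadjusted p under 0.05), and 1 higher in each without that library.

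Of 21 receptors and factors that control P450 genes, 6 were higher and 5 lower with DMOG, and 7 and 6 without DMOG replicate 5. The shares of all genes were 8.26% higher and 11.7% lower, and 17.3% and 18.1% without that library. Hlf, a clock output factor, averaged 2.79 ± 1.95 FPKM with DMOG, 5.45 ± 0.850 FPKM with roxadustat and 8.74 ± 1.18 FPKM with PBS, a fall of 1.63 ± 0.22 on the log2 scale with DMOG (adjusted p = 0.000792). Esr1, the oestrogen receptor, fell as well (-0.44 ± 0.09, adjusted p = 0.00225). Keap1, which holds Nrf2 in check (0.79 ± 0.16, adjusted p = 0.00239), and Arnt, the partner of Ahr and of the HIF alpha subunits (0.61 ± 0.13, adjusted p = 0.00336), rose. Roxadustat gave 1 call, Keap1 (0.71 ± 0.16, adjusted p = 0.0133), and 3 without DMOG replicate 5. Of the receptors tied most closely to the induction of P450 genes by drugs, Nr1i2 was called higher with DMOG (0.44 ± 0.13, adjusted p = 0.0197), while Nr1i3 (-0.39 ± 0.18, adjusted p = 0.132) and Ahr (-0.01 ± 0.14, adjusted p = 0.955) were not called. Between the drugs, Hlf (1.00 ± 0.22, adjusted p = 0.025) and Ppara (0.65 ± 0.17, adjusted p = 0.0439) were higher and Nr1h4 (-0.46 ± 0.10, adjusted p = 0.0248) was lower with roxadustat than with DMOG. These counts were 3 and 5 without DMOG replicate 5.

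Among 25 conjugation enzymes, which act on P450 products, 1 was higher and 4 lower with DMOG, where 8.26% and 11.7% of all genes were. Sult1a1 rose (0.48 ± 0.10, adjusted p = 0.00239), and Ugt2b35 (-0.70 ± 0.13, adjusted p = 0.00157), Sult2a1 (-0.79 ± 0.18, adjusted p = 0.00505) and Sult1b1 (-0.85 ± 0.27, adjusted p = 0.0324) were among those that fell. There were 2 higher and 9 lower without DMOG replicate 5, where 17.3% and 18.1% of all genes were. With roxadustat none of the 25 was called by limma, 4 had an unadjusted p under 0.05, and 2 were called lower without DMOG replicate 5. Against DMOG, roxadustat had Sult1a1 lower (-0.46 ± 0.10, adjusted p = 0.0182), and without DMOG replicate 5 there were 3 higher and 2 lower. Of 6 macrophage genes none was called with DMOG (1 at an unadjusted p under 0.05), and their summed level averaged 623 ± 210 FPKM with DMOG, 550 ± 154 FPKM with roxadustat and 466 ± 151 FPKM with PBS, and 3 were called higher without DMOG replicate 5. The part of these cells in the lower P450 levels was not tested.

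The members had a larger median spread between libraries of 1 treatment than all genes tested had. Their median SD on the log2 scale was 0.34 with DMOG, 0.30 with roxadustat and 0.25 with PBS, against 0.20, 0.15 and 0.15 for all genes tested in liver RNA. Cyp17a1 was the most variable member with DMOG (SD 1.10), Cyp2a4 with roxadustat (0.88) and Cyp2a5 with PBS (0.54). Cyp2a4, a steroid hydroxylase, had 0.773, 1.51 and 2.10 FPKM with DMOG, 1.49, 2.25 and 8.12 FPKM with roxadustat and 0.967, 1.53 and 2.2 FPKM with PBS, and its roxadustat value of 0.74 ± 0.30 was not called (adjusted p = 0.187).

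For the libraries labelled liver (retina RNA), the values may have been scaled separately from those of the other set, so levels are set side by side with liver RNA only as deposited. The members summed to 68.2 ± 1.82 FPKM with DMOG, 68.1 ± 3.27 FPKM with roxadustat and 68.8 ± 4.16 FPKM with PBS (SD, n = 6 each), and their median SD on the log2 scale was 0.13, 0.13 and 0.15 in the same order. Over all treatments Cyp20a1 led, followed by Cyp46a1, the neuronal hydroxylase that lets cholesterol leave the nervous system (7.46 FPKM), and Cyp2j6, which makes epoxides of arachidonic acid (7.002 FPKM). Cyp4f16 (6.39 FPKM), Cyp4f13 (6.30 FPKM) and Cyp2u1 (5.59 FPKM) came next, and these 5 neighbours overlapped in their ranges over libraries. Cyp20a1 stood above them, since its lowest library, at 10.2 FPKM, exceeded the highest of each.

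None of the 16 members tested in retina RNA was called by limma in any of the 3 comparisons, where 1.07% of 13779 genes were called with DMOG, 2.34% with roxadustat and 1.31% between the drugs. At an unadjusted p under 0.05 there were 3, 4 and 3 members in the same order. Every member's groups overlapped. Of all genes, 0.523% stood wholly above and 0.639% wholly below PBS with DMOG, 1.44% and 0.494% with roxadustat, and 1.2% and 0.755% stood above and below DMOG with roxadustat. Log2 fold changes ran over -0.28 to 0.41 with DMOG, -0.29 to 0.19 with roxadustat and -0.23 to 0.18 between the drugs, and the 95% intervals of all 16 members lay within -0.58 and 0.71. The closest to a call was Cyp1b1, which oxidises oestrogens and retinoids and is altered in human congenital glaucoma. Cyp1b1 had 4.51, 5.69 and 6.41 FPKM with DMOG, 4.30, 5.12 and 5.64 FPKM with roxadustat and 3.61, 4.34 and 5.20 FPKM with PBS. The ranges overlapped, with all 6 DMOG libraries above the PBS mean. Its log2 fold change with DMOG was 0.33 ± 0.09 (adjusted p = 0.0795), and it was called without DMOG replicate 1 (0.39 ± 0.08, adjusted p = 0.0295). That library was the lowest with DMOG, so leaving it out was bound to raise the change, and the call is no separate support.

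Cyp26a1, which breaks down retinoic acid, had 2.83, 4.04 and 5.03 FPKM with DMOG, 2.51, 3.17 and 4.01 FPKM with roxadustat and 2.15, 2.73 and 3.38 FPKM with PBS. Its DMOG and PBS ranges overlapped, and its log2 fold change with DMOG was 0.41 ± 0.14 (adjusted p = 0.171). Cyp46a1 averaged 7.67 ± 0.245 FPKM with DMOG, 7.03 ± 0.486 FPKM with roxadustat and 7.69 ± 0.453 FPKM with PBS, with -0.00 ± 0.05 for DMOG (95% interval -0.11 to 0.11) and -0.12 ± 0.05 for roxadustat (adjusted p = 0.213). Cyp39a1 averaged 1.48 ± 0.103, 1.75 ± 0.212 and 1.66 ± 0.208 FPKM in the same order. Cyp20a1 averaged 12.3 ± 0.836 FPKM with DMOG, 12.1 ± 0.832 FPKM with roxadustat and 11.6 ± 1.18 FPKM with PBS, and its groups overlapped. Cyp2u1, called between the drugs in liver RNA, had 4.90, 5.01 and 5.90 FPKM (lowest, median and highest) with DMOG, 5.17, 5.69 and 6.77 FPKM with roxadustat and 5.25, 5.78 and 6.22 FPKM with PBS. Roxadustat minus DMOG was 0.12 ± 0.07 for Cyp2u1 here (adjusted p = 0.553), and whether this differs from liver RNA was not tested. Among the fatty acid enzymes, Cyp4f13 had medians of 5.70 FPKM with DMOG, 6.34 FPKM with roxadustat and 6.42 FPKM with PBS, and Cyp4f16 had 6.49, 6.36 and 6.29 FPKM in the same order. Cyp2j6 had medians of 6.45, 7.21 and 7.41 FPKM in that order, with overlapping ranges. Lens marker genes varied widely between treatments and between libraries in this set. Their sum averaged 92.0 ± 67.1 FPKM with DMOG, 781 ± 1523 FPKM with roxadustat and 3651 ± 3309 FPKM with PBS. The roxadustat mean rests on replicate 1 (3883 FPKM), with a median of 138 FPKM, and PBS libraries ran over 690 to 8941 FPKM. With DMOG 5 of 5 were called lower, and with roxadustat 1 was (5 at an unadjusted p under 0.05). The part of the lens genes in the P450 values was not tested. Of the partner genes, Gstp1, a glutathione transferase, was called lower with DMOG (-0.24 ± 0.06, adjusted p = 0.0396), and none of the 9 electron transfer, 12 heme or 16 receptor and factor genes tested was called with either drug, with 0, 2 and 2 at an unadjusted p under 0.05 with DMOG and 3, 1 and 7 with roxadustat.

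**Figure D5:**
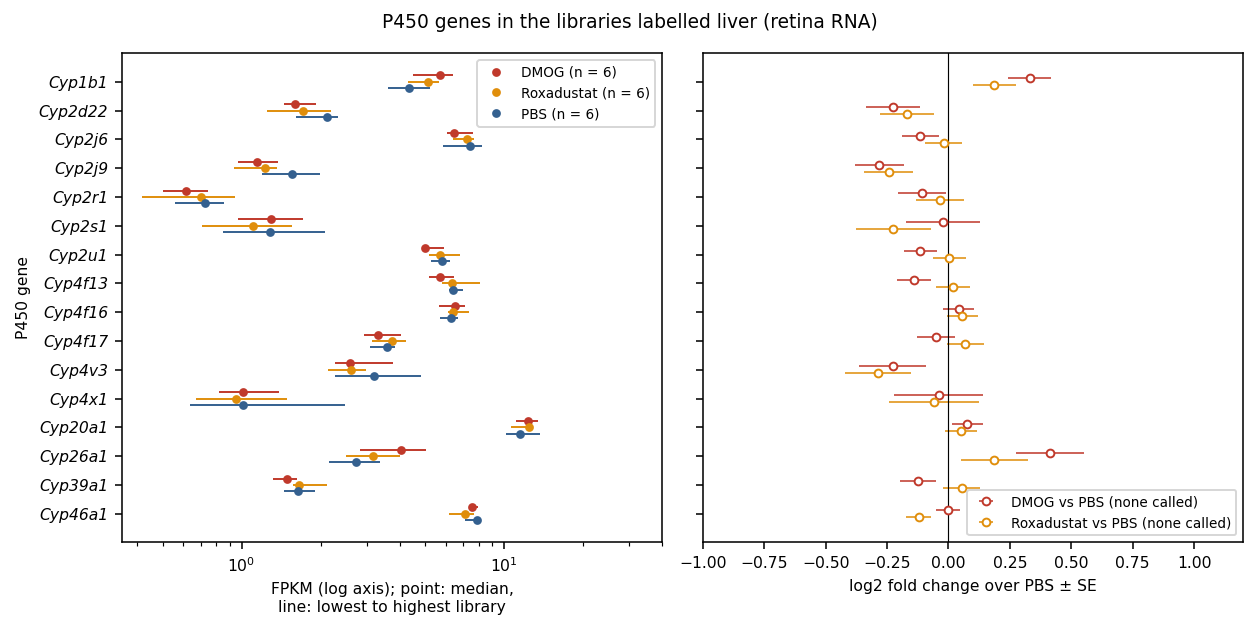
The 16 members that passed the limit in the libraries labelled liver (retina RNA). The left panel gives FPKM on a log axis as the median (point) and the lowest to highest of 6 libraries (line), and the right panel the log2 fold change over PBS ± SE. Cyp26a1 and Cyp1b1 lie furthest to the right with DMOG, at 0.41 and 0.33, and no member is called.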

How the data were processed

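RNA was extracted with RNeasy and sequenced with a stranded, rRNA-depleting TruSeq kit, per the labels' protocols. The submitters' processing notes name bcl2fastq 1.8.3, TopHat2 2, Cuffdiff 2.2.1 and the build mm9. The authors deposited FPKM per gene and library, 1 table per tissue label; their scaling between libraries is not given in the sources used here. No read counts are used, so the number of reads is unknown. The steps between low values gave a relative depth per library, averaging 1.08 with DMOG, 1.06 with roxadustat and 0.857 with PBS in the set labelled liver, and 0.991, 0.986 and 1.03 in the set labelled retina. Its part in the P450 values was not tested. Libraries summed to 433021 to 540324 FPKM (labelled retina) and 542785 to 617853 FPKM (labelled liver).

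Groups follow the labels. Each table was fitted alone in limma 3.58.1 (statmod 1.5.0, R 4.3.3) on log2(FPKM + 0.5), for genes averaging 0.5 FPKM or more over its libraries, with 3 group means, empirical Bayes with a trend and 15 residual degrees of freedom. Tests were two-sided, with Benjamini-Hochberg adjustment over all genes of a table at 0.05. The fit was tested on simulated data. Alternatives were other pseudocounts, filters, scalings and variance settings, a replicate block, a term for sex (from Xist and Y-linked genes) and leaving out each library. Promoters are from RefSeq (GRCm38.p6).

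Members and lists were chosen with earlier results of these data known. Named by rule were Cyp17a1, the called members, the 6 of highest level per table, the highest of each family and up to 4 called partner genes per list and comparison. Other genes (among them Cyp2b10, Cyp4f14, Cyp4f16, Cyp4f17, Cyp2a4, Cyp2a5, Nr1i2, Nr1i3, Ahr, the further Cyp3a genes and, in retina RNA, Cyp39a1) were named after their values were seen.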

Additional observations from a re-analysis of the deposited data

Results flagged for a closer look

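In 4 of 90 groups of 6 libraries (4.44%) 1 library stood apart from the other 5 by Dixon's 95% criterion. Chance gives about 1 in 20 groups. In liver RNA, roxadustat replicate 3 had 11.7 FPKM of Cyp17a1, against 3.34 to 5.85 FPKM in the other roxadustat libraries. DMOG replicate 3 had 333 FPKM of Cyp2d26, against 509 to 598 FPKM in the other DMOG libraries. DMOG replicate 5 had 2.28 FPKM of Cyp2u1, against 0.645 to 1.24 FPKM in the other DMOG libraries, and stood near PBS for most members. In retina RNA, roxadustat replicate 2 had 7.37 FPKM of Cyp4f16, against 6.1 to 6.46 FPKM in the other roxadustat libraries.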

How the results depend on the processing

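The count of members called in liver RNA depended on settings. With DMOG it was 9, and it was 5 with a filter at a mean of 5 FPKM (37 members tested), 30 with an equal total per library and 6 to 24 without 1 library, the highest without DMOG replicate 5. With roxadustat it was 3, and it was 1 with no filter, 8 with an equal total and 1 to 5 without 1 library. Between the drugs it was 1, and it was 0 with the filter at 5 FPKM (7 at an unadjusted p under 0.05), 2 with an equal total, 0 with a term for sex (11 unadjusted) and 1 to 9 without 1 library. With an equal total, 25.8%, 5.99% and 4.41% of all genes were called in these comparisons, against 20.0%, 4.19% and 2.99% in the main fit. Shares of all genes with the filters or the term for sex are not given here. Whether the members moved more than other genes cannot be read from those counts. In retina RNA the count with DMOG was 0, and 0 to 1 without 1 library (Cyp1b1), and the other comparisons stayed at 0 in the alternatives run.

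Same-numbered libraries had correlations of -0.333 to 0.546, of both signs. Between DMOG and roxadustat in liver RNA they were 0.546 for replicate 3 and 0.469 for replicate 5, and -0.289 to 0.119 for the others. Libraries of different numbers were not set beside them, so whether the libraries pair is not settled. With a replicate block the counts in liver RNA were 15 with DMOG, 2 with roxadustat, where Cyp4b1 lost its call (adjusted p = 0.0761), and 4 between the drugs, and in retina RNA 1 with DMOG. The shares of all genes called with this block are not given here.

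Of 385 values of 14 single results, 327 kept their call, 57 lost it, 1 gained it and none changed direction. Cyp17a1 with both drugs and Cyp2b13, Cyp4b1, Cyp2g1, Cyp2a22 and Cyp3a16 with DMOG kept their calls in each alternative that tested them (Cyp17a1, Cyp2b13 and Cyp2g1 lie under the filter at 5 FPKM). With no filter, the calls of Cyp2c67, Cyp2d40 and Cyp2u1 with DMOG and of Cyp2b9 and Cyp4b1 with roxadustat were lost (adjusted p of 0.0556, 0.0566, 0.0697, 0.0575 and 0.0565). The cause was not tested. The number of reads is unknown, so members near 0.5 FPKM are the least certain.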

Other observations

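In the fits with a term for sex, no member was called between female and male libraries by limma in either set, with 6 members in liver RNA and 1 in retina RNA at an unadjusted p under 0.05, and 10 and 8 genes called over all genes tested. Cyp2b13 averaged 3.38 ± 1.85 FPKM in 8 female and 4.08 ± 1.55 FPKM in 10 male libraries of liver RNA (SD). Cyp2b9 averaged 133 ± 15.1 FPKM in the female and 136 ± 25.6 FPKM in the male libraries.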
